A study of Mus musculus with 2 samples.

Results

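The phagocyte NADPH oxidase was followed through 5 of its subunit genes, Cybb, Cyba, Ncf1, Ncf4 and Rac2, chosen by symbol from the 33696 genes of a single-cell count matrix. All 5 were found, and each was counted in every cell class. The matrix came from 1 library of a subcutaneous tumour of 4T1, a breast cancer line that grows in mice with an intact immune system. The genotype is given as WT, and the treatment as PCN in the sample labels and as PATCH in the series title. A second library, from a tumour given PBS in place of the treatment, serves as the study's control. Of the 11643 control cells that the authors kept, only 37 barcodes stood in the matrix, and 33 of these were also treated barcodes. The control counts were not analysed here. Every comparison below is therefore between cells of the treated tumour, and none is an effect of the treatment. How many animals gave cells is not stated, and with 1 library there is no replicate error and no test.

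The enzyme moves electrons from NADPH across a membrane onto oxygen and so makes superoxide, which phagocytes use against microbes. Cybb (gp91phox, also called NOX2) and Cyba (p22phox) form the membrane part, flavocytochrome b558, in which Cybb carries the electrons and Cyba steadies it and docks the organizer. Ncf1 (p47phox, the organizer) and Ncf4 (p40phox, which binds a phosphoinositide of phagosome membranes) wait in the cytosol. On stimulation they join the membrane part together with a Rac GTPase, Rac2 in blood cells or the widely expressed Rac1. In tumours the oxidase is known from neutrophils, monocytes and macrophages, where its products can restrain T cells.

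The promoter letters of the members are shown first, as a description. Cybb and Ncf1, which act in 1 complex, had opposite orders per UMI in the phagocytes described below. Whether these letters bear on that was not tested. RefSeq (GRCm38.p6) gave the 250 bases before the gene start for 3 of the 5 members. The starts are those of the RefSeq promoter table, and that of Cybb lay within the gene's full annotated span. Capitals mark the matches to 3 searched motifs, on either strand: GAGGAA, a core bound by PU.1 and other ETS factors, TTNNGNAA for C/EBP factors and GAAANNGAA for interferon regulatory factors (IRF).
Cybb, chrX:9469325-9469574, minus strand: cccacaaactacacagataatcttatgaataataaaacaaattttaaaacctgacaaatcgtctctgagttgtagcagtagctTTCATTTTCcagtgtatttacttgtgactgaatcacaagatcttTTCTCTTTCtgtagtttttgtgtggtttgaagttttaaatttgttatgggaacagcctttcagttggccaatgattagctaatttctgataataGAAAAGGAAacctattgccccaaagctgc
Ncf1, chr5:134229626-134229875, minus strand: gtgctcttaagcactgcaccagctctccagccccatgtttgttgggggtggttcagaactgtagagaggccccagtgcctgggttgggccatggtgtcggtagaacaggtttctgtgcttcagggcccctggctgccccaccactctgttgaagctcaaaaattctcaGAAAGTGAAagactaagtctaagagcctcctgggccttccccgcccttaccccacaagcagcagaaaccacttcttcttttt
Cyba, chr8:122432941-122433190, minus strand: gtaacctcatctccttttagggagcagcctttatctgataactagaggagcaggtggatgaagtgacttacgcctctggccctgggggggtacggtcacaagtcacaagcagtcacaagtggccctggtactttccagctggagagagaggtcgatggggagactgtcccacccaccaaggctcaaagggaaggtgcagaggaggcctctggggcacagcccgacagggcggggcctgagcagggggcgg

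The Cybb window held 3 IRF matches, which began 29, 123 and 167 bases before the start. The Ncf1 window held 1, at 82 bases, and the Cyba window held none. Neither the GAGGAA core nor the C/EBP motif was present in any of the 3 windows. Of 32851 mouse promoters of the same length, 7.13% held the IRF motif, 23.3% GAGGAA and 36.8% the C/EBP motif. A match describes letters and not a bound site, and a missing match says only that these letters are not in this window. Ncf4 (GRCm38.p6 chromosome 15, 78244164 to 78262582) and Rac2 (chromosome 15, 78559169 to 78572783) lie on the same chromosome. Cybb spans chromosome X, 9435252 to 9487766, Cyba chromosome 8, 122424771 to 122432940, and Ncf1 chromosome 5, 134220053 to 134229628.

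Cells were put in classes by the share of their unique molecular identifiers (UMIs, 1 per captured transcript) that a few marker genes took. The first rule met decided the class. The rules gave 3518 neutrophils (at least 2% from S100a8, S100a9, Csf3r and G0s2), 325 fibroblasts, 322 tumour cells, 238 T or NK cells and 4672 macrophages (at least 0.3% from C1qa, C1qb, Csf1r, Apoe and Lyz2). The other 1760 of the 10835 kept cells met no rule. Of 8 markers outside the rules, 7 were highest in the neutrophil class, and all 8 were highest in each of the other named classes. Depth differed between classes, with a median of 1698 UMIs per cell in neutrophils and 7168.5 in macrophages. The cells that met no rule were mixed. They held 69 of 72 cells with B-cell markers and 90 of 139 with endothelial markers. Their summed level (in CPM, defined below) was higher for myeloid markers, at 2895 for 4 osteoclast, 1965 for 8 neutrophil and 1324 for 8 macrophage markers. It was 257 for 4 B-cell and 350 for 5 endothelial markers. All 4 osteoclast markers were highest in these cells. Within 25% of the neutrophil threshold on either side lay 349 cells, and around the macrophage threshold 752. The median neutrophil drew 0.0713% of its UMIs from the macrophage rule genes and the median macrophage 0.0257% from the neutrophil rule genes.

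A level below is the number of UMIs of a gene per 1000000 UMIs of the class (CPM), with a 95% exact Poisson interval. Shares of cells have exact Clopper-Pearson intervals, and both kinds cover counting error only. UMIs were counted at the 3′ ends of transcripts and were not divided by gene length.

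Cybb, the catalytic subunit, was highest in macrophages, at 648 CPM (640.0 to 656). Neutrophils had 272 (261 to 284) and the cells that met no rule 262 (251 to 274), and these neighbours in the order overlapped. Tumour cells had 27.7, fibroblasts 14.8 and T or NK cells 13.1. The intervals of fibroblasts (11.1 to 19.3) and T or NK cells (6.53 to 23.4) overlapped, and tumour cells (22.3 to 33.9) overlapped the latter. A Cybb UMI was present in 70.5% of macrophages and in 14.1% of neutrophils, and in 11.2% of the deeper tumour cells.

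Cyba, its membrane partner, was found in every class, at 1028 CPM in macrophages, 781 in neutrophils, 206 in tumour cells and 138 in fibroblasts. It was 613 in the cells that met no rule and 299 (263 to 338) in T or NK cells. The intervals of these 6 classes did not overlap. A Cyba UMI was found in 93.1% of macrophages, 71.7% of tumour cells, 67.1% of fibroblasts and 59.1% of neutrophils. Cyba also serves other NADPH oxidases. Whether its UMIs outside phagocytes came from those cells or from free RNA of others was not tested. There were 1.59 Cyba UMIs for each Cybb UMI in macrophages (1.56 to 1.61), 2.87 in neutrophils (2.73 to 3.02), 7.46 in tumour cells and 9.28 in fibroblasts. T or NK cells had 22.8 (12.5 to 46.3), which rests on 11 Cybb UMIs.

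Ncf1 reached its highest level in neutrophils, 353 CPM (340 to 367). Macrophages had 199.7 and the cells that met no rule 105, while T or NK cells (17.8), tumour cells (17.1) and fibroblasts (7.14) were far lower. Intervals of T or NK and tumour cells overlapped (9.99 to 29.4 and 13.0 to 22.2).

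Ncf4 followed the same order at the top, with 478 CPM in neutrophils (462 to 494), 282 in macrophages and 199 in the cells that met no rule. T or NK cells stood at 83.3 (64.9 to 105), with a UMI in 22.3% of cells. Tumour cells (11.1) and fibroblasts (10.2) overlapped.

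Rac2, the GTPase of blood cells, was at 559 CPM in neutrophils (543 to 577) and 486 in T or NK cells (440 to 536). It was 220.0 in the cells that met no rule and 201 in macrophages (197 to 206), and 11.4 in tumour cells and 8.24 in fibroblasts, which overlapped. T or NK cells thus had Rac2 at a level near that of neutrophils, with Cybb and Ncf1 at the level of tumour cells or below.

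**Figure D1:**
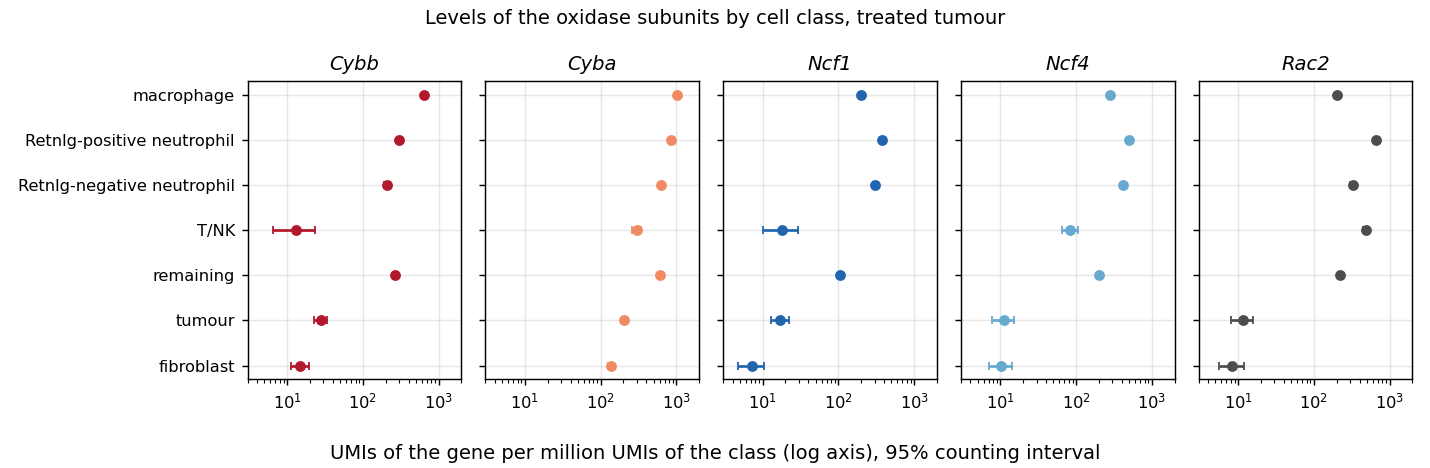
Levels of the 5 subunit genes by class in the treated tumour, in CPM on a log axis. Points are sums over all cells of a class and bars are 95% exact Poisson intervals. Cybb and Cyba stand highest in macrophages, at 648 and 1028 CPM, and Ncf1 and Ncf4 in both neutrophil sets, while Rac2 is also high in T or NK cells, at 486.

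Shares of cells with a UMI depend on depth, so every cell was also thinned to 1000 UMIs, which left out 531 neutrophils and 120 macrophages. After thinning, Ncf1 was seen in 26.9% of neutrophils and 17.8% of macrophages, where the unthinned shares had been 39.6% and 63.5%. Ncf4 was seen in 35.8% and 22.1% (unthinned 50.7% and 70.2%), and Rac2 in 34.7% and 16.6% (unthinned 48.7% and 63.6%). The order of the classes for these 3 genes thus turned with depth, and the thinned order is that of the levels. Cybb kept its order, with 36.5% of macrophages (35.1 to 37.9) and 8.60% of neutrophils (7.62 to 9.67). It was seen in 2.16% of tumour cells and 2.19% of fibroblasts, classes in which a phagocyte gene is not known to act. Cyba was seen in 58.6% of macrophages, 44.9% of neutrophils, 20.9% of tumour cells, 17.9% of T or NK cells and 15.6% of fibroblasts.

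The levels set each gene against the RNA of its class, and neutrophils held little RNA per cell. Counted per 1000 cells instead, all 5 genes were lower in neutrophils. Rac2 gave 1197 UMIs per 1000 neutrophils and 1598 per 1000 macrophages, Ncf4 1022 and 2236, and Ncf1 755 and 1585. Cyba gave 1670 and 8159, and Cybb 582 and 5145. The directions for Rac2, Ncf4 and Ncf1 below therefore hold per UMI and not per cell.

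Neutrophils were next set against macrophages, the classes in which the whole oxidase is known. The ratio of levels was 2.78 for Rac2 (2.68 to 2.89), 1.77 for Ncf1 (1.69 to 1.85) and 1.70 for Ncf4 (1.63 to 1.76). It was 0.759 for Cyba (0.739 to 0.780) and 0.420 for Cybb (0.401 to 0.439). Of the 5 members, 1 (Rac2) was at least 2-fold higher, where 12.9% of 14520 genes were, and 1 (Cybb) at least 2-fold lower, where 50.2% were. The median gene had a log2 ratio of -1.01 and the median member 0.76. The 2 membrane subunits thus lay on the macrophage side of 1 and the 3 others on the neutrophil side. Of all tested genes, 44.5% had a lower ratio than Cybb and 64.2% a lower one than Cyba. Cybb thus lay near the median gene.

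Cybc1, a chaperone needed for Cybb and Cyba protein, was at 22.6 CPM in neutrophils and 48.9 in macrophages, a ratio of 0.462 (0.393 to 0.541). Its log2 ratio of -1.11 was near the -1.01 of the median gene, so its side of 1 is not particular to it. Rac1 had a ratio of 1.23 (1.19 to 1.27). Rac2 made up 48.1% of all Rac1 and Rac2 UMIs in neutrophils (47.1 to 49.2), 56.7% in T or NK cells and 29.0% in macrophages (28.5 to 29.6). In tumour cells it made up 3.40% and in fibroblasts 2.24%.

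**Figure D2:**
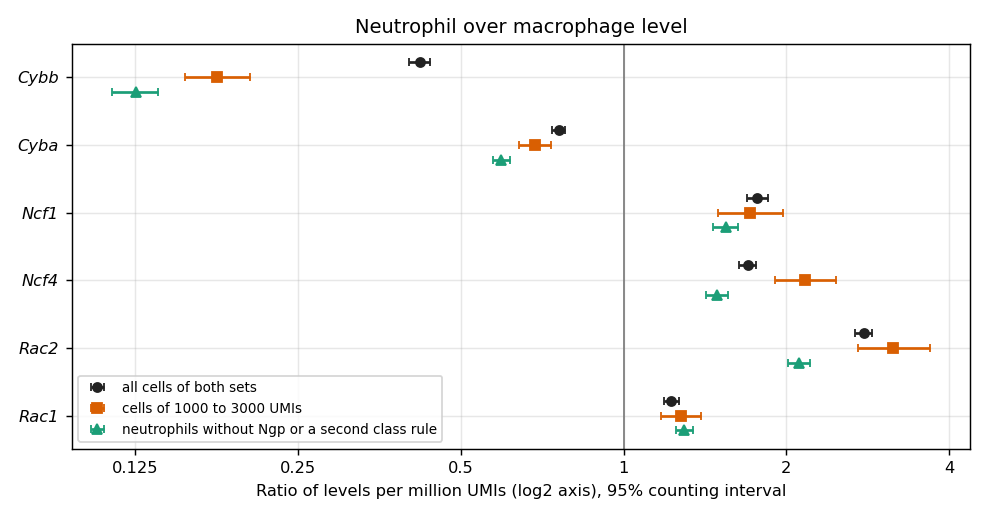
Ratio of the neutrophil to the macrophage level for the 5 members and for Rac1, on a log2 axis with 95% exact intervals. Circles use all cells, squares cells of 1000 to 3000 UMIs in both classes, and triangles neutrophils with no Ngp UMI that met no second class rule. Cybb lies lowest in all 3 sets, at 0.420, 0.177 and 0.125, and Rac2 highest, at 2.78, 3.15 and 2.11.

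Within neutrophils Cybb was spread very unequally. The 175 cells with most Cybb, 5% of the class, held 78.2% of its neutrophil UMIs, against 29.2% to 34.2% for the other 4 genes. With its UMIs spread by depth alone, a Cybb UMI would be present in 40.0% of neutrophils, and it was present in 14.1%. For Ncf4 the same figures were 57.0% and 50.7%. In macrophages the top 5% of cells held 24.7% of Cybb UMIs.

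Cybb differed along a pair of labels, both chosen after the values were seen. The first was Ngp, which encodes a protein of the granules made during late neutrophil maturation in bone marrow. The 383 neutrophils with an Ngp UMI were 10.9% of the class and held 22.1% of its UMIs, but 65.8% of its Cybb UMIs. Their Cybb level was 809 CPM, against 119 in neutrophils without Ngp, a ratio of 6.78 (6.18 to 7.43). Their Rac2 ratio was 2.49 (2.34 to 2.65), and Cyba, Ncf1 and Ncf4 had ratios of 1.97, 1.80 and 1.66. So 2 of 5 members were at least 2-fold higher in the Ngp-positive cells, where 8.58% of 9224 genes were, and 0 of 5 at least 2-fold lower, where 15.9% were. Rac1 lay on the other side, at 0.846 (0.785 to 0.911). The Ngp-positive cells were deeper, with a median of 3883 UMIs. Among cells of 1000 to 3000 UMIs, 126 of them Ngp-positive, the Cybb ratio was 4.53 (3.45 to 5.89) and the Rac2 ratio 2.09 (1.82 to 2.40). The Ngp-positive cells were still deeper there, with medians of 2171.5 and 1675 UMIs. Cybb stayed uneven in the neutrophils without Ngp, where the top 5% of cells held 81.6% of its UMIs. A Cybb UMI was present in 9.09% of them, against 19.2% if spread by depth alone.

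The second label was the macrophage rule, which 283 neutrophils met as well. They held 56.3% of the neutrophils' Cybb UMIs and 15.7% of all neutrophil UMIs. Cells with either label held 79.2% and 30.2%. In the 2929 neutrophils with no Ngp UMI that met no other class rule, Cybb was at 81.2 CPM (73.6 to 89.3). It was 441 (402 to 483) in 278 cells with Ngp that met no other class rule, and 448 (396 to 504) in 182 cells without Ngp that met the macrophage rule. In the 101 cells with Ngp that met the macrophage rule it was 1532 (1432 to 1636), above the macrophage class.

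The genes of the macrophage rule are high in the cells that met it by construction, but the mix differed. The 182 cells without Ngp had C1qa, a macrophage complement gene, at 1055 CPM, Apoe at 4192 and Lyz2, a lysozyme gene of both cell types, at 5859. The 101 cells with Ngp had C1qa at 353, Apoe at 633 and Lyz2 at 5590. Camp, a granule gene of maturing neutrophils that is in no rule, was at 0 in the 182 cells and at 11392 in the 101. What part cells captured together, or free RNA, had in these values was not tested.

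Rac2 differed between these sets mainly by Ngp. It was 1047 and 1097 CPM in the sets with Ngp, and 425 and 371 in those without. Ncf1 had 519 and 605 with Ngp and 308 and 238 without. Ncf4 had 659 and 789 with Ngp and 419 and 415 without.

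**Figure D3:**
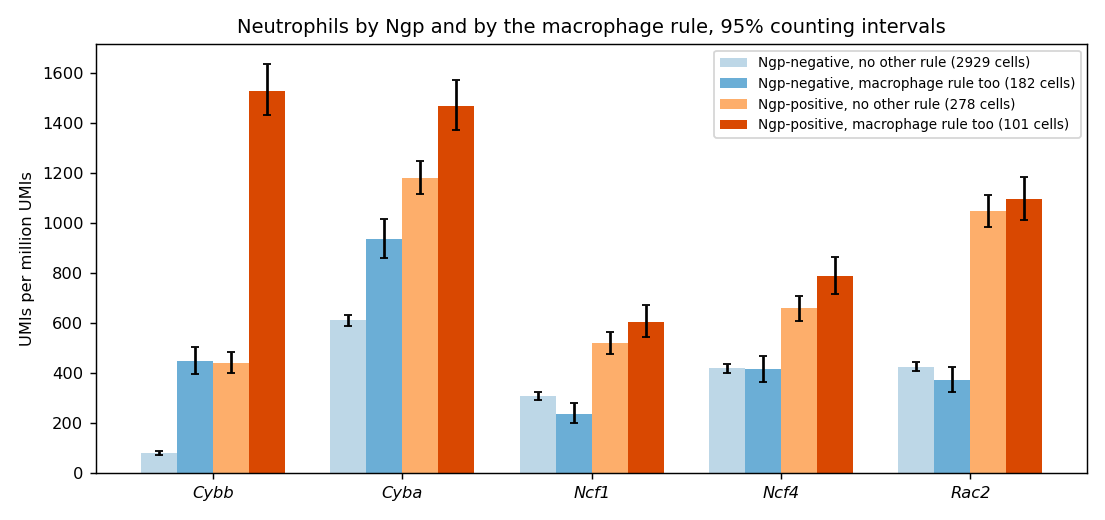
Levels of the 5 members in neutrophils split by Ngp and by whether the macrophage rule was met as well, in CPM. Bars are sums over the cells of a set, with 95% exact Poisson intervals. Cybb goes from 81.2 in cells with no Ngp and no other rule to 441 and 448 in the sets with Ngp or the macrophage rule and 1532 in the set with both, while Rac2 stands above 1000 in both Ngp-positive sets.

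Free RNA can put UMIs of a gene into cells that do not make it, so the low Cybb of the 2929 neutrophils with no Ngp and no other rule was set beside macrophage markers. There Cybb stood at 12.5% of its macrophage level (11.3 to 13.8). Of 8 macrophage markers, 7 stood between 2.79% (Ms4a7) and 7.62% (Adgre1) of theirs, and Cd68 stood at 28.0%. Thinned to 1000 UMIs, Cybb was seen in 4.66% of these cells (3.86 to 5.57), against 2.16% of tumour cells (0.796 to 4.64). Of 3 macrophage genes, C1qc was seen in 5.63% of these neutrophils, Mrc1 in 1.86% (1.37 to 2.48) and Ms4a7 in 0.527% (0.281 to 0.899). Their macrophage levels were 1817, 1027 and 296 CPM, beside 648 for Cybb. The share for Cybb thus lay below that of 1 of these genes and above those of the others, and by level Cybb stood above 7 of the 8 markers. These neutrophils were picked as not meeting the macrophage rule, which can itself lower macrophage markers. The order of Cybb and the markers therefore cannot gauge free RNA, whose part in this Cybb was not tested. Ncf1, Ncf4 and Rac2 stood at 154%, 149% and 211% of their macrophage levels in the same cells, and Cyba at 59.4%.

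Neutrophils were then split by Retnlg, a resistin-like gene known from mature neutrophils of blood. A Retnlg UMI was present in 2118 cells, with a median of 1957 UMIs, and absent from 1400, with a median of 1439. All 5 members were at a higher level in the Retnlg-positive cells. Rac2 was at 661 CPM (639 to 683) against 325 (302 to 350), a ratio of 2.03 (1.87 to 2.20). Cybb was at 301 against 206 (ratio 1.46, 1.32 to 1.63) and Cyba at 851 against 618 (1.38, 1.30 to 1.46). Ncf1 was at 374 against 304 (1.23, 1.13 to 1.34) and Ncf4 at 504 against 417 (1.21, 1.12 to 1.30). Of the 5, 1 was at least 2-fold higher, where 4.03% of 9224 genes were, and 0 at least 2-fold lower, where 7.05% were. The median gene had a log2 ratio of -0.20 and the median member 0.46. Rac1 had a ratio of 0.995 (0.934 to 1.06), so that Rac2 made up 52.3% of Rac1 and Rac2 UMIs in Retnlg-positive cells and 35.0% in Retnlg-negative ones.

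A Cybb UMI was present in 17.2% of Retnlg-positive and 9.43% of Retnlg-negative neutrophils, a Cyba UMI in 66.8% and 47.5%, an Ncf1 UMI in 44.3% and 32.5%. Ncf4 was present in 56.8% and 41.5%, and Rac2 in 58.0% and 34.7%. Thinned to 1000 UMIs, the shares became 9.57% and 6.88% for Cybb, 48.8% and 38.0% for Cyba, 27.5% and 25.9% for Ncf1, 37.2% and 33.3% for Ncf4, and 41.1% and 23.3% for Rac2. The intervals for Cybb, Ncf1 and Ncf4 overlapped at this depth, and those for Rac2 (38.8 to 43.3 and 20.9 to 26.0) and Cyba did not.

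Depth and the Ngp-positive cells both moved with the Retnlg split, and its ratios changed where depth was narrowed or those cells were left out. Between 1000 and 3000 UMIs the Retnlg-positive cells were still deeper, with medians of 1810 and 1557 UMIs. Among cells of 1000 to 3000 UMIs the Cybb ratio turned to 0.786 (0.628 to 0.986) and that of Ncf1 to 0.969 (0.868 to 1.08). In neutrophils without Ngp or a second class rule, Cybb had 0.588 and Ncf1 0.9998. Rac2 stayed on its side, at 1.72 (1.55 to 1.90) and 1.62, but under 2-fold. Cyba had 1.19 and 1.17, and Ncf4 1.07 and 1.08.

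**Figure D4:**
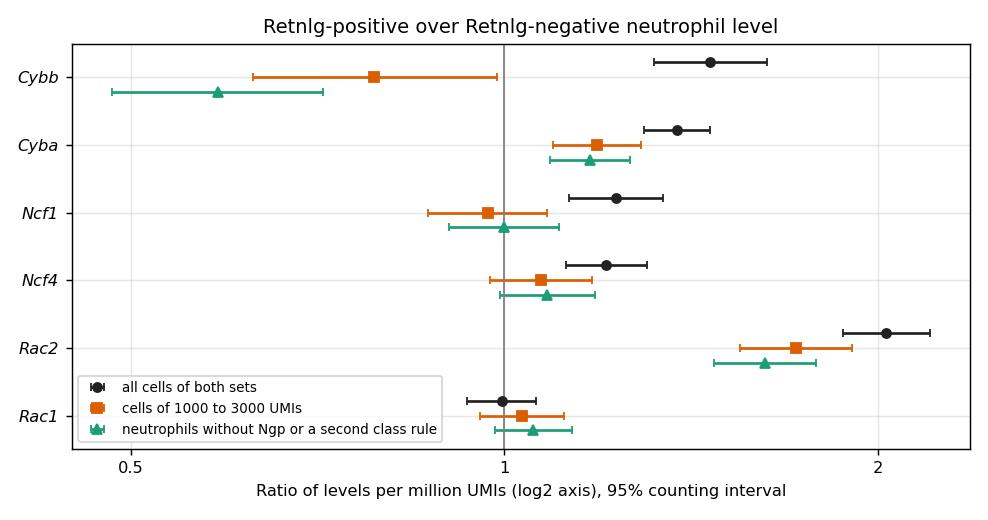
Ratio of the level in Retnlg-positive to that in Retnlg-negative neutrophils for the 5 members and for Rac1, on a log2 axis with 95% exact intervals. Circles use all neutrophils, squares those of 1000 to 3000 UMIs, and triangles those with no Ngp UMI that met no second class rule. Rac2 stays above 1 in all 3 sets (2.03, 1.72 and 1.62), while Cybb lies above 1 in the first (1.46) and below it in the others.

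Genes that feed or control the oxidase were counted from lists. NADPH comes largely from the pentose phosphate pathway, of which G6pdx and Pgd are the reducing steps and Tkt and Taldo1 the sugar exchanges. Of 9 NADPH supply genes that could be tested, 3 were at least 2-fold higher in Retnlg-positive neutrophils and 0 lower, beside the 4.03% and 7.05% of all genes. G6pdx was at 44.9 against 8.37 CPM (ratio 5.37), Tkt at 216 against 52.4 (4.13) and Pgd at 210 against 89.0 (2.36). In neutrophils without Ngp or a second rule these ratios were 2.15, 3.05 and 1.76. Of 26 genes that control assembly, 2 were at least 2-fold higher: Arhgdib, which holds Rac proteins in the cytosol, at 2.22, and Arhgap15, which switches Rac off, at 2.03. Without Ngp or a second rule they had 1.35 and 1.77. The 2 of 26 lie near the 4.03% of all genes.

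None of 15 genes that handle superoxide and peroxide differed by 2-fold, with Gpx1 highest at 1.74 and the dismutase Sod2 at 0.583. Of 10 transcription factors known for the oxidase genes, 0 differed by 2-fold. With 4.03% of all genes higher and 7.05% lower, counts of 0 in lists of this size lie near the background. Spi1, which encodes PU.1, had a ratio of 1.34 (1.24 to 1.45), and Irf1 0.623.

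Set against macrophages, neutrophils had 6 of 27 control genes at least 2-fold higher and 5 lower. Of all genes, 12.9% were that much higher and 50.2% that much lower. The formyl peptide receptors Fpr1 and Fpr2, which trigger the oxidase, had ratios of 26.8 and 7.18, and the Src family kinase Fgr 5.58. Hvcn1, the proton channel that balances the oxidase's charge, had 0.111, and Nrros, which limits Cybb protein, 0.298. Of 10 NADPH supply genes 5 were at least 2-fold lower and 0 higher, with Idh2 at 0.122 and Taldo1 at 1.60. Of 17 superoxide and peroxide genes 9 were lower and 2 higher. The 5 of 10 and the 9 of 17 lower lie near the 50.2% of all genes. The peroxiredoxins went both ways, with Prdx1 at 0.135 and Prdx5 at 2.18 (2215 against 1014 CPM).

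Of 10 transcription factors, 3 were at least 2-fold higher in neutrophils and 2 lower. Cebpb (ratio 4.89) and Cebpd (4.59) stood on the neutrophil side, and Irf8 (23.3 against 253 CPM, 0.0921) and Cebpa (0.0878) on the macrophage side. These shares stand beside the same 12.9% of all genes higher and 50.2% lower.

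The members also varied with other single-gene splits. In neutrophils with Ccl3, a chemokine gene, all 5 had lower levels than in those without. Rac2 had the lowest ratio, 0.631 (447 against 708 CPM), and Ncf1 the highest, 0.777. At 1000 to 3000 UMIs Cybb turned to 1.11 (0.880 to 1.39), and the other 4 lay between 0.655 and 0.810. Rac1 had 1.07 (1.01 to 1.14). Neutrophils with Rsad2, an interferon-induced gene, had ratios from 0.835 (Ncf1) to 1.01 (Cyba).

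In macrophages the subunits parted along Ccr2, the receptor that marks cells close to blood monocytes. Cybb was at 801 CPM in 2364 Ccr2-positive cells and 449 in 2308 without, a ratio of 1.78 (1.74 to 1.83). Ncf4 had a ratio of 1.46, Rac2 1.26, Ncf1 1.14 and Cyba 1.03. None of the 5 passed 2-fold in either direction, where 2.53% of 13948 genes were that much higher and 3.87% lower. Ccr2-positive cells were deeper (median 8196 against 5958 UMIs). At 1000 to 3000 UMIs, on 194 and 459 cells, the ratio was 1.50 for Cybb (1.27 to 1.79) and 1.46 for Ncf4 (1.13 to 1.87). Those of Rac2, Ncf1 and Cyba had intervals that held 1.

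Of the macrophage sets read here, Cybb was highest in the 183 cells with Cxcl9, a gene induced by interferon gamma. It stood at 1276 CPM there (1224 to 1330) against 617 without Cxcl9, a ratio of 2.07. Cyba had 1.19, Ncf4 1.23, and Ncf1 and Rac2 had intervals that held 1. Only 5 of these cells lay between 1000 and 3000 UMIs, so no ratio was read in that range. Macrophages with Ctsk, a cathepsin gene high in osteoclasts, had a Cybb ratio of 0.781 (0.754 to 0.808) and a Cyba ratio of 1.03. They were deeper, with medians of 9338 and 6755 UMIs, and at 1000 to 3000 UMIs the Cybb ratio turned to 1.14 (0.836 to 1.53), on 50 and 603 cells. With Arg1 the Cybb ratio was 1.44, which became 0.899 (0.745 to 1.08) at 1000 to 3000 UMIs.

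The cells that met no rule gave a different balance. Their 259 Ctsk-positive cells had Rac2 at 319 CPM, against 177 in the others (ratio 1.80), with Ncf1 at 43.7 against 131 (0.334) and Cybb at 134 against 317 (0.422). Depth moved with this split, with medians of 9570 and 2281 UMIs. At 1000 to 3000 UMIs, on 38 Ctsk-positive cells, Rac2 had 1.12 (0.644 to 1.83), Ncf1 1.14 and Cybb 0.423 (0.169 to 0.883). Cells with B-cell markers, 72 in all, had Cybb at 260.5 CPM (193 to 343) and Rac2 at 386 (303 to 484). In 139 cells with endothelial markers Cybb was at 52.9, Rac2 at 66.5 and Rac1 at 586. Of these 139, 25 were in the neutrophil class, 13 in the T or NK class and 11 in the macrophage class. The endothelial values are therefore not those of endothelial cells alone. In 33 cells with dendritic-cell markers Cybb was at 72.1 (34.6 to 133) and Cyba at 447. Of these 33 cells, 13 were in the T or NK class and 19 met no rule. The dendritic markers Flt3, Xcr1 and Clec9a were at 0 in the T or NK class. These levels are therefore not those of dendritic cells alone.

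Other NADPH oxidases were sparse in the phagocytes. Nox4, a homologue of Cybb that also pairs with Cyba, was at 168 CPM in fibroblasts (155 to 182), with a UMI in 46.2% of them. In macrophages it had 9 UMIs (0.243 CPM) and in neutrophils 6 (0.797). Fibroblasts also had Duox1 (14.8) and its maturation factor Duoxa1 (11.8). Fibroblasts thus had Cyba with more Nox4 than Cybb UMIs, 613 against 54.

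The members were also counted together in single cells, each thinned to 1000 UMIs. Neutrophils and macrophages had nearly the same mean number of members per cell, 1.51 and 1.52, but not the same pairs. Both Cybb and Cyba were seen in 21.4% of macrophages (20.3 to 22.7) and 4.85% of neutrophils (4.11 to 5.69). At least 1 of Ncf1, Ncf4 and Rac2 without Cybb was seen in 59.4% of neutrophils and 27.5% of macrophages. Cybb without any of the 3 was seen in 2.11% and 17.8%. Retnlg-positive neutrophils had both membrane genes in 6.17% of cells (5.13 to 7.35) and Retnlg-negative ones in 2.51% (1.66 to 3.63). The Cybb level ratio of this split was 0.588 in neutrophils without Ngp or a second rule, and the pair was not counted in that set. Among 229 T or NK cells 0 had both, with an upper bound of 1.60%. At 1000 UMIs a gene that is expressed is often not seen, so these shares are no counts of cells with a complete oxidase.

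**Figure D5:**
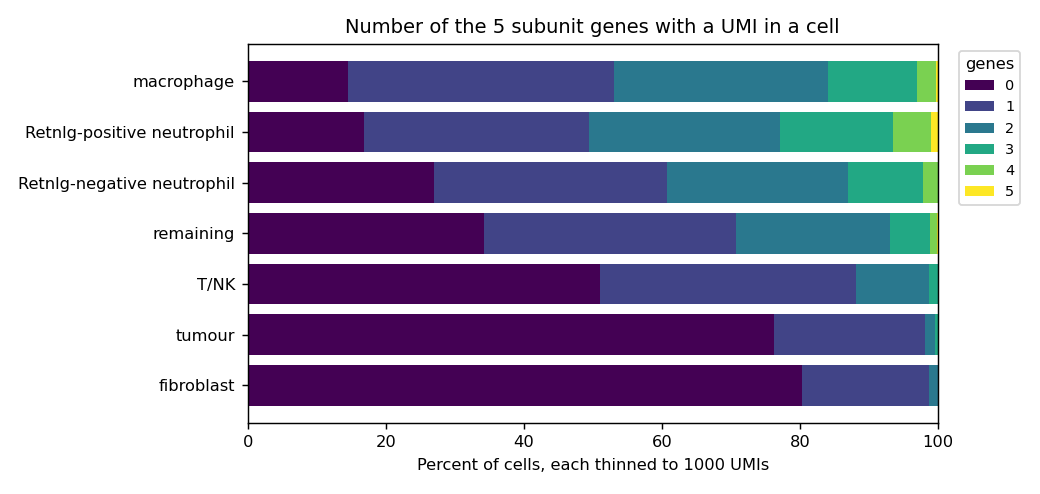
Number of the 5 subunit genes with at least 1 UMI in a cell, as percent of the cells of each class, after thinning every cell to 1000 UMIs. Colours run from 0 to 5 genes. No gene was seen in 14.5% of macrophages, 16.8% of Retnlg-positive and 27.1% of Retnlg-negative neutrophils, against 76.3% of tumour cells and 80.3% of fibroblasts.

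Across 7 profiles (both neutrophil sets, the 4 other classes and the cells that met no rule), the genes most like each member were ranked by Pearson's r of log2 levels among 8814 genes. As descriptions over classes that share 1 library, Rac2 was most like Cd52 (r = 0.996), Orai1 and Arhgap9. Ncf4 was most like Lcp1 (0.994), Synj1 and AB124611, and Ncf1 like Slc15a3 (0.992), Fcer1g and Gm31223. Cybb was most like Gm21188 (0.992), Ptprj and Ccl6, and Cyba like Vps18 (0.986), Hmox2 and Vsir. Among the members, the lowest r was that of Cybb with Rac2, 0.546, and the highest that of Cyba with Ncf1, 0.944.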

How the data were processed

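Single-cell RNA was measured on Chromium 3′ v3 libraries, per the labels' protocols. The deposited values are whole UMI counts that the authors made from their reads with Cell Ranger (version 8.0.1, per the file headers). The submitters' processing notes list STAR as well. The build, the annotation and the way cells were kept are facts not given in the sources used here. The deposited cell list, which gives each cell's library, set the cells: 10835 of 12309 barcodes, with 60652188 UMIs in all and between 500 and 19989 per cell (median 3575).

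Python 3.11.15, numpy 2.4.6, scipy 1.17.1 and pandas 2.3.3 were used. UMIs were summed per class and given per 1000000 (CPM). Each ratio of 2 sums has a 95% interval, exact and conditional on their total. Genes with at least 20 UMIs over both sets entered the background of a ratio. Log2 medians add 0.5 UMIs to each sum, and the likeness of profiles uses log2(level + 1) of genes with at least 500 UMIs. Free RNA was not subtracted and doublets were not called; cells that met a second rule were set apart instead.

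The 5 members, the class rules and the gene lists were chosen with earlier results of these data known. The lists covered oxidase parts (14), control of assembly (27), NADPH supply (10), superoxide and peroxide handling (17) and transcription factors (10). From each, up to 4 genes per direction, those farthest from a ratio of 1 with 50 or more UMIs, could be named, and a subset picked after the values were seen was printed. Some listed genes are not reported here. The planned comparison with the control library could not be run. The ratio step was checked on simulated Poisson sums, the model from which its intervals come. Those sums do not cluster by cell as the Cybb UMIs did, so the check cannot tell how the intervals hold under clustering.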

Additional observations from a re-analysis of the deposited data

How the results depend on the processing

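Class thresholds, the set of barcodes, totals, depth, thinning, second-rule cells and the Retnlg threshold were varied; leaving out neutrophils with Ngp was added after the data were seen. No paired analysis was possible because each group has 1 library and the control counts were not analysed here. Of 110 alternative values of the ratios, 50 stayed within their counting interval, 55 moved and 5 changed direction. Those 5 are the Retnlg ratio of Cybb at 1000 to 3000 UMIs (0.786), without Ngp (0.613) and without Ngp or a second rule (0.588), and that of Ncf1 at 1000 to 3000 UMIs (0.969) and without Ngp or a second rule (0.9998). The count of members at least 2-fold higher in Retnlg-positive cells, 1 in all neutrophils, was 0 with all barcodes, with thresholds halved, with means over cells, at 1000 to 3000 UMIs, with thinning before the split, without Ngp, and without Ngp or a second rule. It was 2 with thresholds doubled. The count at least 2-fold higher in neutrophils than macrophages, 1 with all cells, was 2 at 1000 to 3000 UMIs, where Ncf4 reached 2.17. The neutrophil to macrophage ratio of Cybb lay between 0.125 and 0.464 over its alternatives, and that of Rac2 between 2.09 and 3.15. The Retnlg ratio of Rac2 lay between 1.57 and 2.28. Of 240 alternative values of the class levels, 124 stayed within their counting interval and 116 moved. At 1000 to 3000 UMIs Cybb went from 272 to 74.99 CPM in neutrophils and from 648 to 423 in macrophages. In that range it rose from 27.7 to 96.5 in tumour cells, and Ncf4 rose from 10.2 to 107 in fibroblasts. The intervals given with the levels do not cover such shifts. The cause of these shifts was not tested. Depth limits the shares most: thinned to 500 UMIs, a Cybb UMI was left in 5.12% of neutrophils.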

Other observations

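The authors' cell list left out 1474 barcodes of the matrix, which enter no comparison above. Classed by the same rules, 436 of them were tumour barcodes with a median of 29962.5 UMIs. They had Cyba at 201 CPM (194 to 208) and Cybb at 14.5 (12.7 to 16.6), and kept tumour cells had 206 and 27.7. The 242 left-out fibroblast barcodes had Cyba at 171.5 and Cybb at 24.9. The 459 left-out macrophage barcodes had Cybb at 697 (680.2 to 714), Ncf4 at 310.4 and Rac2 at 238, and 344 of them held 20000 UMIs or more. Among 280 left-out barcodes that met no rule, Rac2 was at 366 (347 to 386) with Ncf1 at 35.3. The 53 left-out neutrophil barcodes, with a median of 736 UMIs, had Cybb at 612 (523 to 711) and Rac2 at 389.

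Cells on either side of the thresholds were also read. The 168 cells with a neutrophil share between 2% and 2.5% had Cybb at 492 CPM and Rac2 at 305. The 139 cells with a share between 1.5% and 2% that met no rule had Cybb at 172 and Rac2 at 232. Cells that met another class rule were kept above 2% and left out below it, so these sets differ in more than the threshold. Cells just inside the macrophage threshold had Cybb at 485 and those just outside it at 448.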
